A study of Mus musculus with 8 samples.

Results

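The contractile cytoskeleton and its transcriptional control were followed here through 39 genes, which were taken by symbol from the 24346 genes of an RNA sequencing table of mouse bone marrow mesenchymal stem/stromal cells (MSCs). They comprise actins, myosins, tropomyosins, calponins, actin cross-linkers and adhesion proteins, the transcription regulators *Srf*, *Mkl1*, *Yap1* and *Wwtr1*, and 3 targets of YAP, *Ankrd1*, *Amotl2* and *Lats2*. The cytoplasmic beta-actin gene *Actb* is not among them, because it is listed at 0 RPKM in both undifferentiated KO libraries. MSCs are adherent cells grown from the marrow that can form bone and fat cells in culture. They were taken at passage 4 from female C57BL/6 mice of 8 to 16 weeks, either wild type (WT, Dnmt3l+/+) or without a working copy of *Dnmt3l*, a cofactor of the DNA methyltransferases (*Dnmt3l* KO, bred from heterozygous parents carrying the tmEnls allele), with cells of 3 mice mixed for each genotype. All cells were depleted of blood cells carrying CD11b or CD45. Undifferentiated MSCs grew in alpha-MEM with 20% fetal bovine serum. Differentiating MSCs had spent 3 days in osteogenic medium, which held 10% serum with 0.1 μM dexamethasone, 10 mM beta-glycerophosphate and 50 μM ascorbate phosphate. In the study's method the cells reached confluence before the osteogenic medium was added. The density of the undifferentiated MSCs at harvest is not given in the sources used here. Serum level, supplements, days in culture and possibly cell density therefore changed together with the state and cannot be told apart. Neither can the genotype and the mix of mice.

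Each of the 4 groups had 2 libraries. The sources used here do not say whether these came from separate cell mixes, so the p-values measure only the spread between these libraries, which may be technical. The unit is RPKM, reads scaled to transcript length and library depth, so levels of different genes can be compared per length. Estimated depth was 48.3 to 67.2 M reads per library. *Dnmt3l* was listed at 0 RPKM in all 4 KO libraries and stood at 0.830 to 1.56 RPKM in WT. All 12 MSC marker genes were above 1 RPKM in every library. The summed level of 8 endothelial markers was 0.561 to 4.88 RPKM, and those of macrophage and pericyte markers are given beside the genotype differences. In these bulk samples fewer cells of a type and less RNA per cell cannot be told apart.

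Contraction in non-muscle cells rests on stress fibres, bundles of actin filaments that are stabilised by tropomyosins and calponins, cross-linked by alpha-actinin and filamin, pulled by myosin II and anchored at integrin adhesions. Serum response factor (SRF) binds CArG boxes in the promoters of many of these genes, and its cofactor MRTF-A, the product of *Mkl1*, is held in the cytoplasm by monomeric actin and enters the nucleus when actin polymerises. YAP and TAZ (the products of *Yap1* and *Wwtr1*) enter the nucleus in spread and tense cells, bind DNA through TEAD factors and are restrained by the Hippo kinases LATS1 and LATS2. In MSCs a spread, contractile shape is known to go with bone formation and a rounded one with fat formation.

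The promoters of the members were searched for the letters that these factors bind. RefSeq promoter windows (GRCm38.p6, 250 bases before to 50 after a start) were matched to 36 of the 39 members, in 44 windows. *Actg2*, *Myh11* and *Tagln* had no window and were not searched. A CArG box, a run of 10 bases with CC, 6 bases of A or T, and GG, lay before the start in 6 of the 36 members (16.7%), against 1.46% of 11142 tested genes and 1.62% of all 27025 genes with a window. Its reverse complement has the same form, so a single search covers both strands. Boxes that depart from this form or lie outside the windows were not searched. The 6 members were the light chain genes *Myl9* and *Myl6*, the calponin gene *Cnn2*, the cytoplasmic actin gene *Actg1*, the vinculin gene *Vcl* and *Srf* itself, which held 2 boxes. These stretches are shown 5′ to 3′ on the gene's strand, with coordinates of mm10 and the CArG boxes in capitals, because SRF is the factor these genes are best known to answer to.
Myl9, chr2:156775278-156775337, plus strand: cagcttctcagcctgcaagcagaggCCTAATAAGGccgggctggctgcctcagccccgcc
Cnn2, chr10:79988519-79988578, plus strand: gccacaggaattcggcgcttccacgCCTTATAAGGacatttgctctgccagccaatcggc
Myl6, chr10:128493040-128493069, minus strand: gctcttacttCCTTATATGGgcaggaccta
Actg1, chr11:120348551-120348610, minus strand: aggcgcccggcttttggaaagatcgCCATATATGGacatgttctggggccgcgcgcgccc
Vcl, chr14:20929148-20929205, plus strand: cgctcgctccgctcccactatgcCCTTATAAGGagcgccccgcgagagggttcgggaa
Srf, chr17:46556190-46556269, minus strand: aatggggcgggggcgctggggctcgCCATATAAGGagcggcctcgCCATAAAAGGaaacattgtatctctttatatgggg

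The 5 stretches other than that of *Myl6* overlapped no exon in the GENCODE vM21 annotation. The *Myl6* stretch lies before a second start of the gene and overlaps exons of other *Myl6* transcripts. The letters GGAATG, the core that TEAD factors bind, were searched on both strands (CATTCC on the other) and overlapped no CArG box. They lay before the start in 16 of the 36 members (44.4%), against 13.2% of tested genes and 14.4% of all genes. Among the genes whose values moved most, *Acta2*, the smooth muscle alpha-actin gene, had 1 match and *Ankrd1*, a YAP target that encodes a cardiac ankyrin repeat protein of muscle and stressed cells, had 2. They are shown with GGAATG in capitals and lie in exons of longer transcripts of the same genes.
Acta2, chr19:34255502-34255531, minus strand: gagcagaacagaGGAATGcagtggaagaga
Ankrd1 upstream match, chr19:36120037-36120066, minus strand: gtcactgccaaaGGAATGaccctctcacat
Ankrd1 downstream match, chr19:36119950-36119979, minus strand: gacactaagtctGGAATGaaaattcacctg

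A match is a description of the sequence and not a binding site. The members were chosen as genes of the contractile cytoskeleton and targets of SRF and YAP. Their higher shares of both motifs may follow from that choice and are not read as a result. Members of very different response held GGAATG before the start. *Acta2* and *Ankrd1* were among those with the greatest fall on induction, whereas *Amotl2*, *Yap1* and *Flnc* also held it and had log2 fold changes of -0.14, -0.11 and 0.17 in WT MSCs.

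The module as a whole was lower after induction in both genotypes, and lower in differentiating KO than in differentiating WT MSCs. The summed level of the 39 genes was 17166 and 17884 RPKM in WT and 18346 and 18123 RPKM in KO MSCs before induction, and 7194 and 7616 RPKM in WT and 5403 and 4634 RPKM in KO MSCs after it. Where 2 values are joined in this way, replicate 1 comes first. The KO libraries lay above the WT libraries before induction and below them after it. The module took 1.84% and 1.86% of the summed RPKM of the whole table in undifferentiated WT and 2.13% and 2.08% in undifferentiated KO MSCs. After induction it took 0.78% and 0.80% in WT and 0.529% and 0.449% in KO MSCs.

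**Figure D1:**
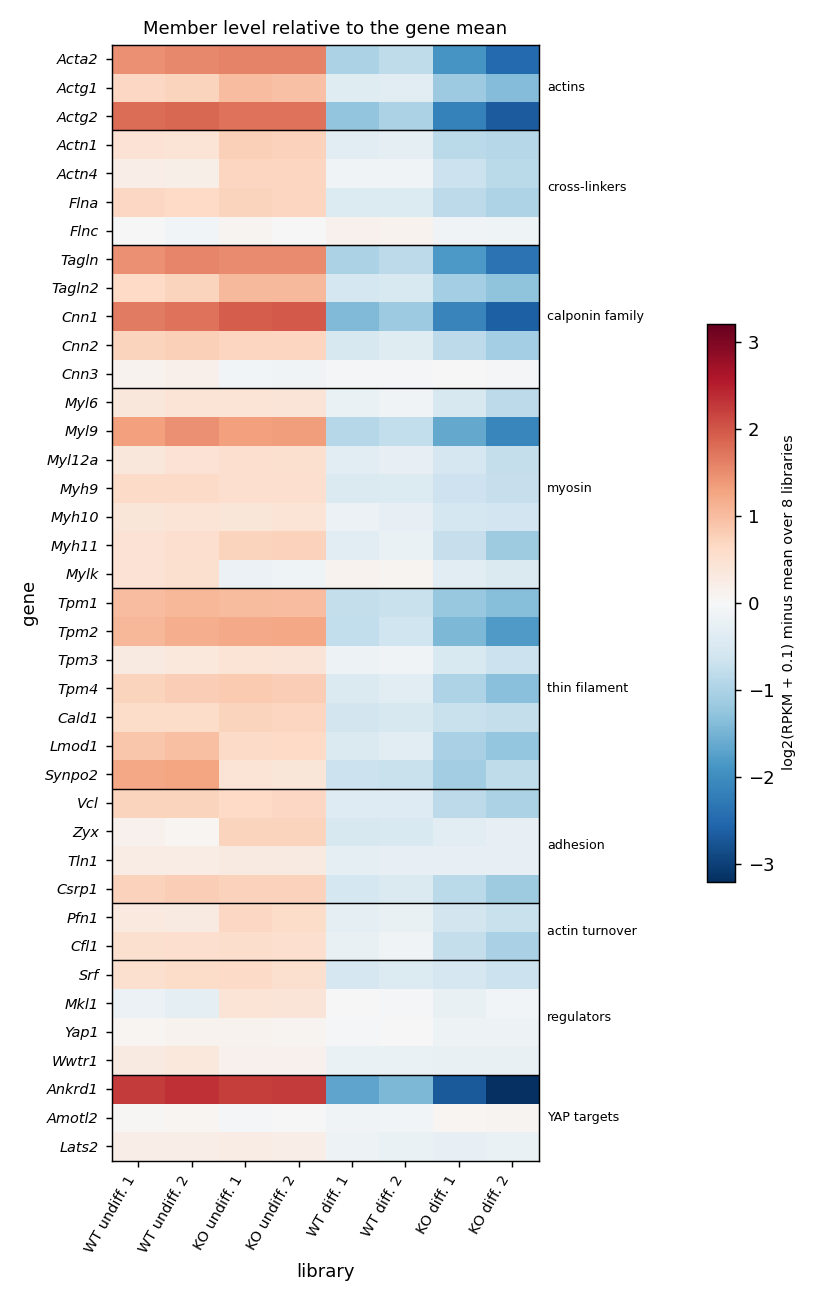
Level of each of the 39 members in each of the 8 libraries, as log2(RPKM + 0.1) minus the mean of the gene over the libraries, grouped by role. The strongest contrast between undifferentiated and differentiating libraries lies in *Ankrd1*, *Cnn1*, *Actg2*, *Acta2* and *Tagln*, and the lowest values are those of the 2 differentiating KO libraries.

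Tests were run in limma on log2(RPKM + 0.1) for the 15342 genes that reached a mean of 0.1 RPKM, all 39 members among them, and Benjamini-Hochberg adjustment was made over this whole set. Higher and lower stand from here on for an adjusted p under 0.05, and a call needed more than a 2-fold change in addition. Each log2 fold change is given on that scale, which compresses the lowest values, and the value after ± is its standard error in the fit to all 8 libraries. That fit gave all 4 groups a single spread, although the 2 differentiating KO libraries differed from each other most.

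In WT MSCs, induction lowered nearly the whole module. At an adjusted p under 0.05, 37 members were lower and 2 were higher, where 32.8% of all tested genes were lower and 31.6% higher. Of the 39 members 20 fell by more than 2-fold (4.63% of all tested genes did) and 0 rose by more than 2-fold (9.69% of all tested genes did; at an unadjusted p under 0.05 in limma the count was also 0). The median log2 fold change of the members was -1.05, from -3.86 for *Ankrd1* to 0.21 for *Mkl1*, with a median of 0.00 over all tested genes. In KO MSCs, 37 members were lower and 1 was higher (36.6% and 36.4% of all tested genes), 29 fell by more than 2-fold (9.87%) and 0 rose by more than 2-fold (13.0%; also 0 at an unadjusted p under 0.05 in limma). The median there was -1.45, from -5.17 for *Ankrd1* to 0.09 for *Cnn3*.

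**Figure D2:**
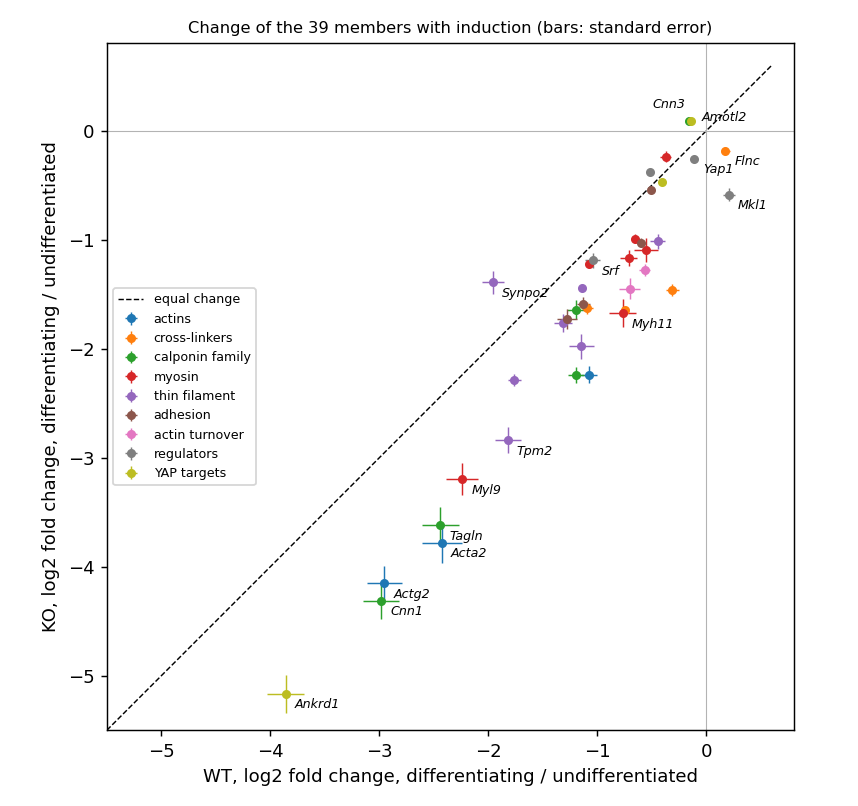
Log2 fold change with induction of each member in WT (horizontal axis) and KO MSCs (vertical axis), with standard errors from limma, coloured by role, and a dashed line of equal change. Of 39 points 34 lie below the line, from *Mkl1* and *Flnc* near 0 to *Ankrd1* at -3.86 and -5.17, and *Synpo2* stands clearly above it.

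The members kept much the same order in both genotypes. Across the 39 genes the 2 log2 fold changes, which share no library, had a Pearson correlation of 0.944 and a Spearman correlation of 0.904, with a slope of 1.29 of KO on WT. Genes are not independent replicates and all of them come from the same 8 libraries, so this is a description. The KO change was the more negative in 34 members and the less negative in 5.

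The smooth muscle actins fell furthest among the actins. *Acta2* (chr19:34241090-34255590, minus strand, mm10), which marks smooth muscle and contractile fibroblasts, was at 2052 and 2165 RPKM in WT and 2236 and 2213 RPKM in KO MSCs before induction, and at 365 and 419 RPKM in WT and 198 and 132 RPKM in KO MSCs after it. The 4 undifferentiated libraries formed a narrow band, and after induction both KO libraries lay below both WT libraries. With induction the gene changed by -2.43 ± 0.18 (adjusted p = 8.9e-05) in WT and by -3.78 ± 0.18 (adjusted p = 8.3e-06) in KO MSCs. *Actg2* (chr6:83512905-83536265), the enteric smooth muscle actin gene, was at 505 and 524 RPKM in WT and 487 and 487 RPKM in KO MSCs before induction, and at 61.2 and 71.6 RPKM in WT and 32.5 and 23.0 RPKM in KO MSCs after it. It showed the same order, and changed by -2.96 ± 0.16 (adjusted p = 2.3e-05) in WT and -4.15 ± 0.16 (adjusted p = 3.5e-06) in KO MSCs. *Actg1*, the cytoplasmic gamma-actin gene, was at 1289 and 1333 RPKM in WT and 1603 and 1555 RPKM in KO MSCs before induction, and at 616 and 625 RPKM in WT and 360.1 and 309.9 RPKM in KO MSCs after it. Its log2 fold changes were smaller, -1.08 ± 0.08 (adjusted p = 6.7e-05) in WT and -2.24 ± 0.08 (adjusted p = 2.2e-06) in KO MSCs. Of the 50-base words of the longest *Actg1* transcript 56.7% also occur in transcripts of other genes, mostly in Gm12715, and its level is uncertain by what the counting gave to each; for *Acta2* this share was 0.352% and for *Actg2* 0%.

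The calponin family split between genes that fell steeply and 1 that hardly moved. *Cnn1* (chr9:22099216-22109630), the smooth muscle calponin gene, was at 170.1 and 179 RPKM in WT and 208 and 209 RPKM in KO MSCs before induction, and at 20.2 and 23.8 RPKM in WT and 12.4 and 8.69 RPKM in KO MSCs after it. Both differentiating KO libraries were below both WT libraries, and no differentiating library came near an undifferentiated one. The log2 fold changes were -2.98 ± 0.16 (adjusted p = 2.4e-05) in WT and -4.32 ± 0.16 (adjusted p = 3.3e-06) in KO MSCs, the second greatest fall of the module in both. *Tagln* (chr9:45929619-45936058), which encodes the actin-binding protein transgelin, was at 1369.9 and 1473 RPKM in WT and 1426 and 1417 RPKM in KO MSCs before induction, and at 245 and 279 RPKM in WT and 138 and 96.6 RPKM in KO MSCs after it. Its level followed that of *Acta2* closely, with log2 fold changes of -2.44 ± 0.17 (adjusted p = 5.6e-05) in WT and -3.62 ± 0.17 (adjusted p = 6.5e-06) in KO MSCs. *Tagln2*, the more widely expressed transgelin gene, was at 163 and 174 RPKM in WT and 218 and 216 RPKM in KO MSCs before induction, and at 71.4 and 75.5 RPKM in WT and 49.1 and 42.6 RPKM in KO MSCs after it, with log2 fold changes of -1.20 in WT and -2.25 in KO MSCs. *Cnn2* was between 156 and 564 RPKM, with changes of -1.20 and -1.64. *Cnn3*, the non-muscle calponin gene, was at 300.0 and 312 RPKM in WT and 264 and 258 RPKM in KO MSCs before induction, and at 273 and 274 RPKM in WT and 283 and 274 RPKM in KO MSCs after it. All 8 of its values lay within a narrow range, and it changed by -0.16 ± 0.04 (adjusted p = 0.0097) in WT and 0.09 ± 0.04 (adjusted p = 0.064) in KO MSCs, and 14.8% of its 50-base words are shared with other transcripts. Its WT fall did not pass under quantile normalization (adjusted p = 0.0713) or without replicate 2 of undifferentiated WT MSCs.

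Myosin II genes all fell in both genotypes, the light chain *Myl9* most. Among all tested genes 32.8% were lower with induction in WT and 36.6% in KO MSCs. *Myl9* (chr2:156775420-156781658), the regulatory light chain gene of smooth muscle type, was at 842 and 920.4 RPKM in WT and 840.1 and 849 RPKM in KO MSCs before induction, and at 179 and 193 RPKM in WT and 108 and 78.1 RPKM in KO MSCs after it. *Myl9* changed by -2.24 ± 0.15 (adjusted p = 5.0e-05) in WT and -3.20 ± 0.15 (adjusted p = 6.7e-06) in KO MSCs, and both differentiating KO libraries were below both WT libraries. The other regulatory light chain gene in the list, *Myl12a*, had log2 fold changes of -0.71 ± 0.08 (adjusted p = 0.00037) in WT and -1.17 ± 0.08 (adjusted p = 2.6e-05) in KO MSCs, and shares 29.2% of its words with its near copy *Myl12b*. *Myh9*, the heavy chain gene of non-muscle myosin IIA and the main heavy chain here, was at 354 and 352 RPKM in WT and 331 and 334 RPKM in KO MSCs before induction, and at 166 and 169 RPKM in WT and 145 and 139 RPKM in KO MSCs after it. It fell by nearly the same amount in both genotypes, with -1.07 ± 0.04 (adjusted p = 3.6e-06) in WT and -1.23 ± 0.04 (adjusted p = 1.3e-06) in KO MSCs. *Myh11*, the smooth muscle heavy chain gene, stayed low, at 11.9 and 12.6 RPKM in WT and 14.1 and 14.6 RPKM in KO MSCs before induction, and at 6.82 and 7.42 RPKM in WT and 5.08 and 3.84 RPKM in KO MSCs after it. Its log2 fold changes were -0.77 ± 0.13 (adjusted p = 0.0024) and -1.68 ± 0.13 (adjusted p = 4.9e-05), and after induction both KO libraries were below both WT libraries. *Myh10*, the heavy chain gene of myosin IIB, and the essential light chain gene *Myl6* had changes of -0.65 and -0.56 in WT and of -0.99 and -1.10 in KO MSCs. *Mylk*, which encodes the kinase that activates myosin II, fell least of the 7 genes, with -0.38 in WT and -0.24 in KO MSCs.

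Of the 7 thin filament genes, which include the tropomyosins, 6 fell by more than 2-fold in WT and 7 in KO MSCs. The shares over all tested genes were 4.63% in WT and 9.87% in KO MSCs. *Tpm1*, the most abundant tropomyosin gene before induction, was at 1492 and 1558 RPKM in WT and 1505 and 1499.9 RPKM in KO MSCs before induction, and at 444 and 455 RPKM in WT and 323 and 293 RPKM in KO MSCs after it. Its log2 fold changes were -1.76 in WT and -2.29 in KO MSCs, with a standard error of 0.06 in both. *Tpm2* was at 544 and 583 RPKM in WT and 603 and 614 RPKM in KO MSCs before induction, and at 152 and 167 RPKM in WT and 96.7 and 74.6 RPKM in KO MSCs after it, with log2 fold changes of -1.82 ± 0.12 (adjusted p = 5.3e-05) and -2.84 ± 0.12 (adjusted p = 5.1e-06). In each of these genes the differentiating KO libraries were the lowest. *Tpm4* was at 1066 and 1110.1 RPKM in WT and 1161 and 1117 RPKM in KO MSCs before induction, and at 471 and 512 RPKM in WT and 326 and 256 RPKM in KO MSCs after it, with log2 fold changes of -1.15 in WT and -1.98 in KO MSCs. Of its words 12.1% are shared with other transcripts, as are 17.0% of those of *Tpm3*, the only gene of the 7 that changed by less than 2-fold in WT (-0.45 in WT and -1.02 in KO MSCs). The caldesmon gene *Cald1*, whose product inhibits actomyosin, had changes of -1.14 and -1.45. *Lmod1*, the smooth muscle leiomodin gene, whose product starts actin filaments, was at 29.7 and 31.2 RPKM in WT and 24.5 and 24.9 RPKM in KO MSCs before induction, and at 11.6 and 12.8 RPKM in WT and 7.77 and 6.69 RPKM in KO MSCs after it, with log2 fold changes of -1.32 and -1.76. *Synpo2*, which encodes the Z-disc and stress fibre protein myopodin, was the lowest member, at 3.21 and 3.29 RPKM in WT and 1.82 and 1.74 RPKM in KO MSCs before induction, and at 0.767 and 0.756 RPKM in WT and 0.548 and 0.691 RPKM in KO MSCs after it. The change was -1.96 ± 0.10 (adjusted p = 2.1e-05) in WT and -1.39 ± 0.10 (adjusted p = 4.8e-05) in KO MSCs, from a WT level that was the higher before induction. At least 249 estimated reads stood behind each value of *Synpo2*.

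The shares of related genes within their families shifted with induction. Each share is of the listed members only. *Myl12b* is left out, as is *Actb*, which stood above each of the 3 actin genes in WT and in differentiating KO MSCs. Among the 3 actin genes *Acta2* held 53.4% and 53.8% of the summed RPKM in undifferentiated WT, 35.0% and 37.6% in differentiating WT and 33.5% and 28.4% in differentiating KO MSCs, while *Actg1* took the larger share after induction, 59.1% and 56.0% in WT and 61.0% and 66.7% in KO. In the calponin family the share of *Tagln* went from 54.2% ± 0.491 (SD, n = 2) in undifferentiated to 30.0% ± 1.20 in differentiating WT and 18.7% ± 2.84 in differentiating KO MSCs, and that of *Cnn3* from 11.7% ± 0.179 to 31.4% ± 1.53 and 44.9% ± 3.58. *Myl9* held 75.5% ± 0.352 of the 2 regulatory light chains before and 51.7% ± 0.364 after induction in WT, and 40.4% ± 3.04 in differentiating KO MSCs. *Myh9* held between 88.7% and 91.3% of the heavy chains in every library, while the share of *Myh11* went from 3.15% ± 0.131 to 3.77% ± 0.188 in WT and from 3.88% ± 0.0612 to 2.82% ± 0.450 in KO MSCs. *Tpm1* led the tropomyosins before induction, with 44.8% ± 0.0819 against 32.0% ± 0.114 for *Tpm4* in WT, but after it *Tpm4* led in both WT libraries, with 38.8% ± 0.687 against 35.5% ± 0.850, and in replicate 1 of KO. *Flna*, the main filamin gene, went from 90.5% ± 0.228 to 79.8% ± 0.290 of the 2 filamins in WT, and the muscle filamin gene *Flnc* from 9.49% ± 0.228 to 20.1% ± 0.290. *Actn1* went from 58.1% ± 0.341 to 50.6% ± 0.470 of the 2 alpha-actinins. With 2 libraries a group the smallest p that an exact permutation test of a share allows is 0.333, two-sided, so the shares are given without a test.

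**Figure D3:**
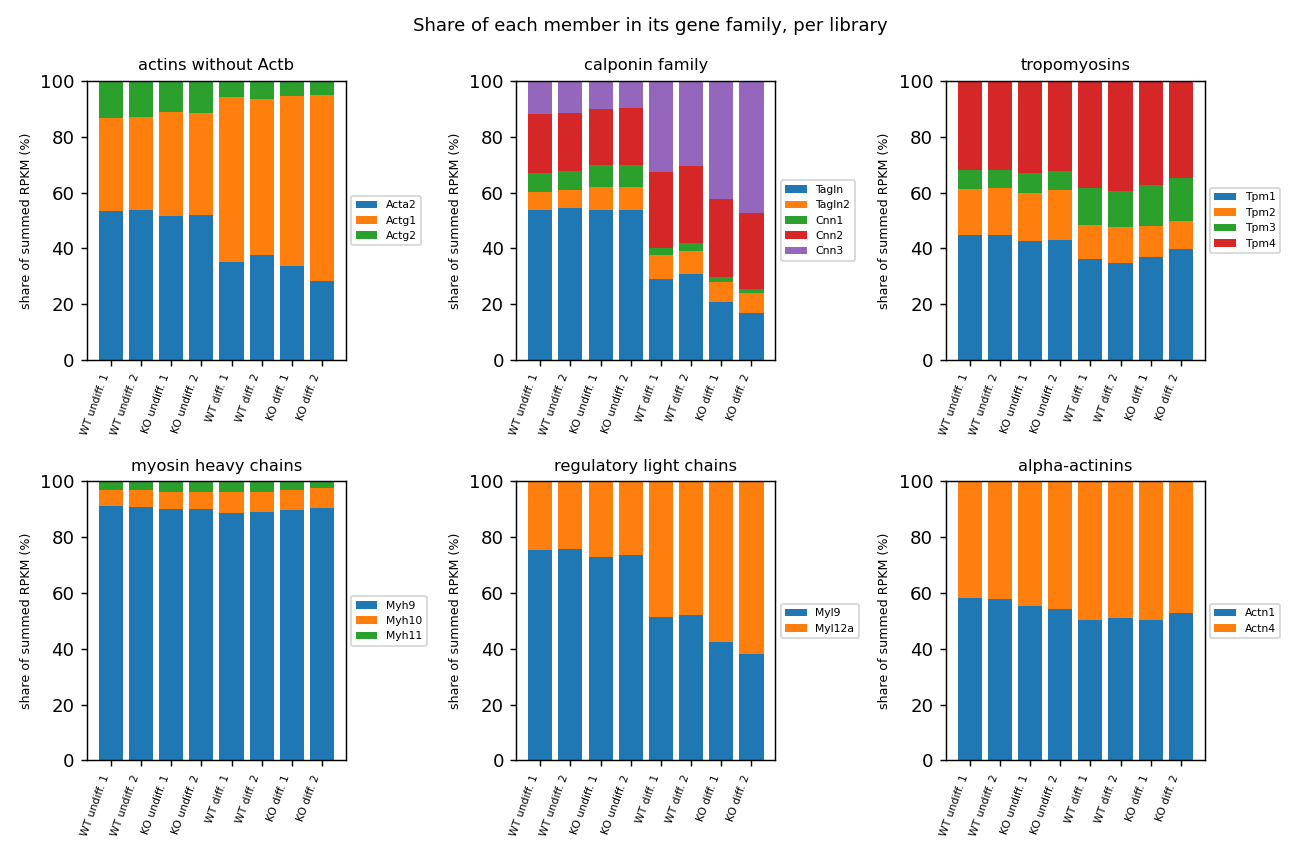
Share of each member in the summed RPKM of its gene family (vertical axis, percent), in each of the 8 libraries, for 6 families as stacked bars. Families hold the listed members only, without *Actb* and *Myl12b*. *Acta2*, *Tagln* and *Myl9* take a smaller share in every differentiating than in every undifferentiated library, and *Actg1*, *Cnn3* and *Myl12a* a larger one, whereas *Myh9* keeps about the same share throughout.

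All 4 cross-linker and all 4 adhesion genes were lower after induction in KO MSCs, and 3 and 4 of them in WT. Without a fold limit, 36.6% of all tested genes were lower in KO and 32.8% in WT. *Actn1*, which encodes the alpha-actinin that bundles filaments at adhesions, was at 141 and 138 RPKM in WT and 175 and 171 RPKM in KO MSCs before induction, and at 81.6 and 84.4 RPKM in WT and 55.7 and 54.2 RPKM in KO MSCs after it. Its log2 fold changes were -0.75 in WT and -1.65 in KO MSCs, with a standard error of 0.03. *Flna* was at 589 and 579 RPKM in WT and 609 and 599 RPKM in KO MSCs before induction, and at 271 and 275 RPKM in WT and 207 and 185 RPKM in KO MSCs after it, with changes of -1.09 and -1.63. Both genes were lowest in the differentiating KO libraries. *Flnc* was an exception, 0.17 ± 0.04 (adjusted p = 0.0086) in WT and -0.19 ± 0.04 (adjusted p = 0.0051) in KO MSCs. The KO fall of *Flnc* did not pass under quantile normalization (adjusted p = 0.386 in limma). *Csrp1*, a LIM domain protein gene of smooth muscle and stress fibres, was at 405 and 422 RPKM in WT and 405 and 401 RPKM in KO MSCs before induction, and at 165 and 176 RPKM in WT and 134 and 110.0 RPKM in KO MSCs after it, with log2 fold changes of -1.28 and -1.73. The vinculin gene *Vcl* and the zyxin gene *Zyx*, whose products sit at adhesions, had changes of -1.13 and -0.60 in WT and of -1.59 and -1.03 in KO MSCs. The talin gene *Tln1*, which links integrins to actin, had changes of -0.51 and -0.55. The actin turnover genes *Pfn1* (profilin) and *Cfl1* (cofilin) had changes of -0.57 and -0.70 in WT, and of -1.28 and -1.45 in KO MSCs.

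Of the 4 regulators *Srf* was the one that fell by more than 2-fold. *Srf* (chr17:46548329-46556175) was at 17.1 and 17.8 RPKM in WT and 18.3 and 17.1 RPKM in KO MSCs before induction, and at 8.09 and 8.69 RPKM in WT and 8.10 and 7.32 RPKM in KO MSCs after it. Its level was lower in every differentiating library than in any undifferentiated one, -1.04 ± 0.07 (adjusted p = 4.6e-05) in WT and -1.19 ± 0.07 (adjusted p = 1.5e-05) in KO MSCs, and the genotypes overlapped in both states. *Mkl1* (chr15:81012281-81190757) was at 6.47 and 6.06 RPKM in WT and 10.1 and 9.90 RPKM in KO MSCs before induction, and at 7.29 and 7.20 RPKM in WT and 6.32 and 6.96 RPKM in KO MSCs after it. It rose with induction in WT, 0.21 ± 0.06 (adjusted p = 0.021), and fell in KO MSCs, -0.59 ± 0.06 (adjusted p = 0.00017), and the 2 undifferentiated KO libraries stood above all others. The WT rise of *Mkl1* did not pass under median centring (adjusted p = 0.054) or quantile normalization (adjusted p = 0.17), nor without replicate 2 of undifferentiated WT (0.11), replicate 1 (0.09) or replicate 2 (0.07) of differentiating WT MSCs. *Yap1* (chr9:7931999-8004596) was at 47.0 and 48.5 RPKM in WT and 48.6 and 47.4 RPKM in KO MSCs before induction, and at 43.7 and 44.6 RPKM in WT and 40.0 and 40.2 RPKM in KO MSCs after it, a change of -0.11 (adjusted p = 0.016) in WT and -0.26 (adjusted p = 0.00033) in KO MSCs. The WT fall of *Yap1* did not pass under quantile normalization (adjusted p = 0.207), without replicate 2 of undifferentiated WT or without replicate 1 of differentiating WT MSCs. *Wwtr1*, the TAZ gene, was at 37.5 and 38.2 RPKM in WT and 33.7 and 33.3 RPKM in KO MSCs before induction, and at 26.5 and 26.2 RPKM in WT and 25.7 and 25.7 RPKM in KO MSCs after it, a change of -0.52 (adjusted p = 1.7e-05) in WT and -0.38 (adjusted p = 3.3e-05) in KO MSCs. RNA levels do not show where these proteins were in the cell.

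The 3 YAP targets did not move together. *Ankrd1* (chr19:36111961-36120099) was at 158 and 172 RPKM in WT and 156 and 159 RPKM in KO MSCs before induction, and at 10.3 and 12.3 RPKM in WT and 5.15 and 3.55 RPKM in KO MSCs after it. It was 14.6-fold higher in undifferentiated than in differentiating WT and 36.2-fold higher in undifferentiated than in differentiating KO MSCs by the ratio of group means, the greatest change of any member. Its log2 fold changes were -3.86 ± 0.17 (adjusted p = 1.0e-05) and -5.17 ± 0.17 (adjusted p = 2.1e-06), and at least 319 estimated reads stood behind each value. *Amotl2*, which encodes an angiomotin that holds YAP in the cytoplasm, was at 171 and 172 RPKM in WT and 163 and 165 RPKM in KO MSCs before induction, and at 154 and 156 RPKM in WT and 172 and 177 RPKM in KO MSCs after it. It changed by -0.14 (adjusted p = 0.0061) in WT and 0.09 (adjusted p = 0.032) in KO MSCs, but the WT fall did not pass under quantile normalization (adjusted p = 0.493) and the small rise in KO did not pass in 10 of 18 alternative settings. *Lats2*, the Hippo kinase gene that YAP itself induces, was at 45.7 and 45.4 RPKM in WT and 46.4 and 45.6 RPKM in KO MSCs before induction, and at 35.1 and 33.6 RPKM in WT and 32.7 and 33.7 RPKM in KO MSCs after it. Its log2 fold changes were -0.41 (adjusted p = 0.00011) and -0.47 (adjusted p = 3.4e-05), but 56.5% of its words are shared with the overlapping gene model Gm49361.

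**Figure D4:**
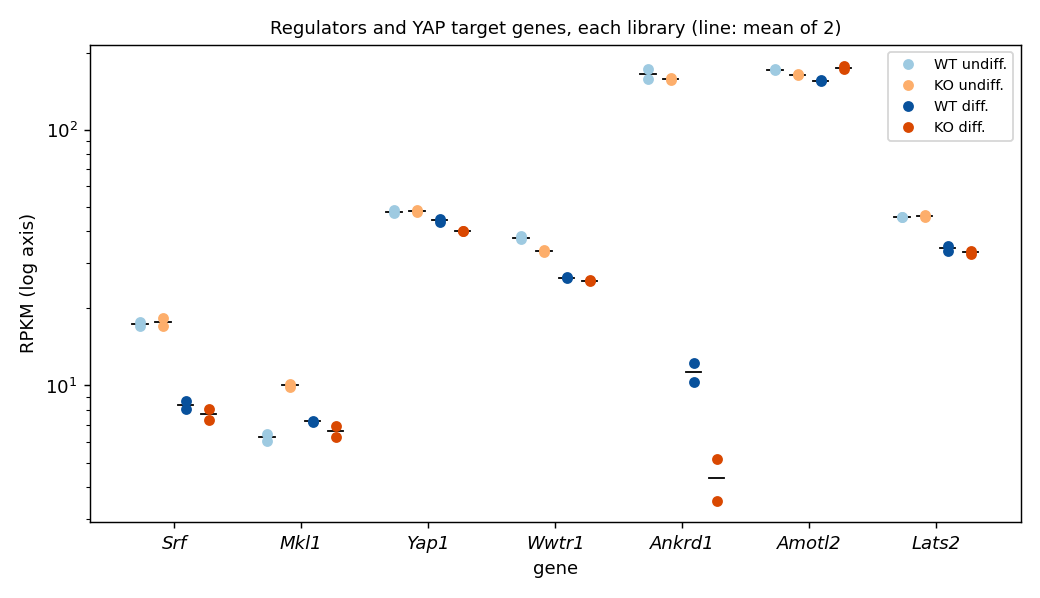
RPKM of the 4 regulators and 3 YAP targets in each of the 8 libraries (vertical axis, log scale), with a line at the mean of the 2 libraries of a group. *Ankrd1* spans from 3.55 to 172 RPKM, *Srf* separates by state, *Mkl1* is highest in undifferentiated KO MSCs, and *Yap1* and *Amotl2* stay within a narrow range.

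Before induction the genotypes differed little in the module. Of the 39 members 0 were called higher and 0 lower in KO than in WT MSCs (0.613% and 1.09% of all tested genes were), and at an unadjusted p under 0.05 in limma with the same 2-fold limit the counts were also 0. At an adjusted p under 0.05 and no fold limit, 7 members were higher (14.7% of all tested genes) and 5 lower (17.5%), close to the shares over all genes, and without a fold limit 9 and 6 had an unadjusted p under 0.05. The median log2 fold change was 0.02. The higher members were *Mkl1* 0.67 ± 0.06 (adjusted p = 0.0011), *Zyx* 0.61 (adjusted p = 0.00052), *Actn4* 0.49 (adjusted p = 0.0025), *Tagln2* 0.37 (adjusted p = 0.014), *Pfn1* 0.32 (adjusted p = 0.0080), *Actn1* 0.31 (adjusted p = 0.0022) and *Actg1* 0.27 (adjusted p = 0.043). The lower ones were *Synpo2* -0.83 ± 0.10 (adjusted p = 0.0033), *Mylk* -0.65 (adjusted p = 0.00063), *Lmod1* -0.30 (adjusted p = 0.035), *Cnn3* -0.23 (adjusted p = 0.0073) and *Wwtr1* -0.18 (adjusted p = 0.0056). *Zyx* stood at 58.2 and 55.6 RPKM in WT and 86.8 and 86.6 RPKM in KO MSCs, and *Mylk* at 20.7 and 21.5 and 13.1 and 13.6 RPKM. For 4 of the genes with the greatest fall on induction the intervals included 0. The difference was 0.08 (95% interval -0.37 to 0.53, adjusted p = 0.78) for *Acta2*, 0.00 (95% interval -0.40 to 0.41) for *Tagln*, 0.26 (95% interval -0.15 to 0.66, adjusted p = 0.28) for *Cnn1* and -0.07 (95% interval -0.49 to 0.35, adjusted p = 0.79) for *Ankrd1* in limma. In a fit to only the libraries compared, *Cnn1* had an adjusted p of 0.0197. Of the members listed, *Actg1*, *Lmod1*, *Tagln2*, *Pfn1* and *Cnn3* did not pass in at least 1 fit without a single undifferentiated library.

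After induction 30 members were lower in KO than in WT MSCs (22.9% of all tested genes were) and 2 were higher (17.8%). Of these 6 were called lower by more than 2-fold (1.95% of all tested genes) and 0 higher (1.36%; 0 also at an unadjusted p under 0.05 in limma). The 6 were *Ankrd1* -1.38 ± 0.17 (adjusted p = 0.0026), *Acta2* -1.27 ± 0.18 (adjusted p = 0.0040), *Actg2* -1.27 ± 0.16 (adjusted p = 0.0027), *Tagln* -1.18 ± 0.17 (adjusted p = 0.0036), *Cnn1* -1.07 ± 0.16 (adjusted p = 0.0047) and *Myl9* -1.02 ± 0.15 (adjusted p = 0.0040), all in limma with Benjamini-Hochberg adjustment. In each of them both KO libraries were below both WT libraries. The genes were picked by this same difference, so that order describes them and adds no support. The median over the 39 members was -0.50, and 35 were below 0. Replicate 2 of the differentiating KO MSCs was below replicate 1 in 32 of the 39 members, by a median of 0.18 on the log2 scale and most in *Acta2*. Without that library the number of calls was 2, *Actg2* (-1.03) and *Ankrd1* (-1.12), and without replicate 2 of the differentiating WT MSCs it was 4. Without the latter library 8 of the members with a smaller difference (*Cald1*, *Cnn2*, *Csrp1*, *Myh11*, *Myl12a*, *Myl6*, *Yap1* and *Zyx*) no longer had an adjusted p under 0.05.

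**Figure D5:**
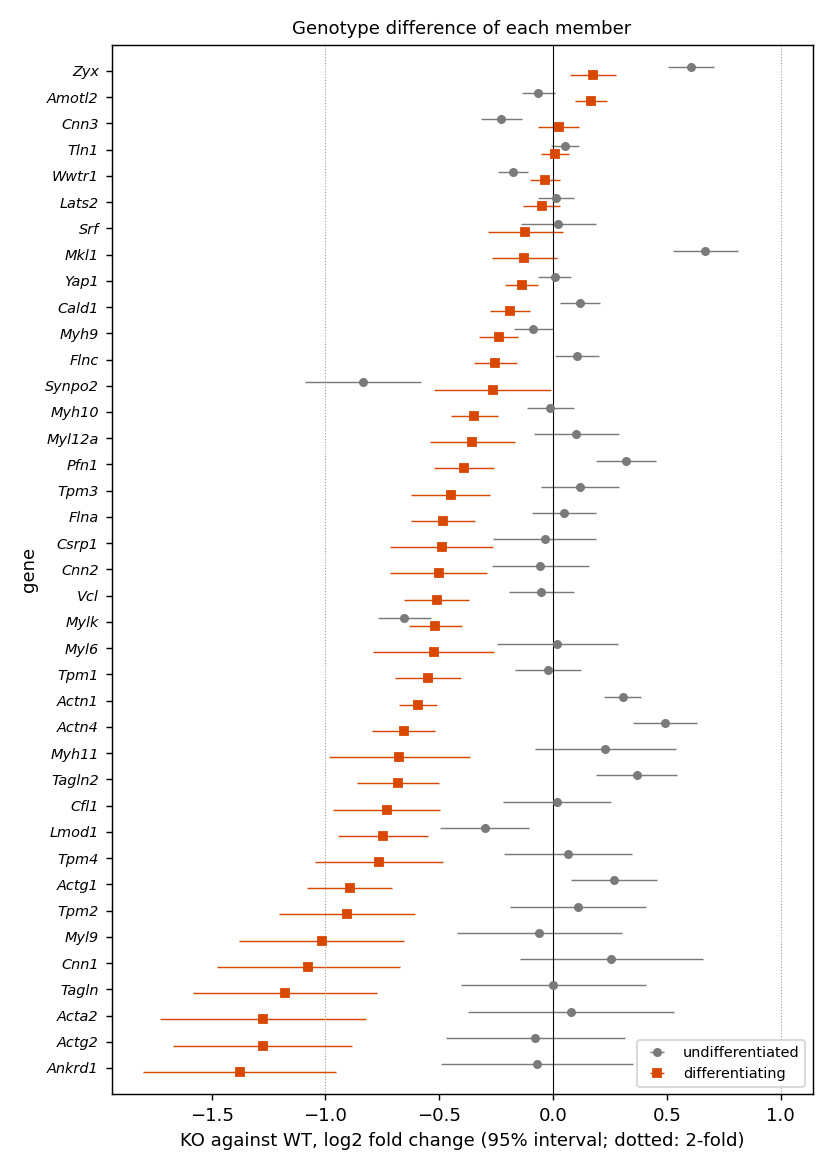
Log2 fold change of KO against WT for each member, in undifferentiated (grey circles) and differentiating MSCs (orange squares), with 95% intervals from limma and dotted lines at 2-fold. In undifferentiated MSCs the values lie on both sides of 0, from -0.83 to 0.67, and in differentiating MSCs 35 of 39 lie below 0, down to -1.38 for *Ankrd1*.

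The other 9 members were not lower in differentiating KO MSCs. *Zyx* was the member with the highest value in this comparison, 0.18 ± 0.04 (adjusted p = 0.018), with 41.1 and 43.9 RPKM in KO and 37.4 and 37.7 RPKM in WT. It did not pass without either of the differentiating WT libraries. *Amotl2* was also higher, 0.17 ± 0.03 (adjusted p = 0.0073). Of the other 7 members that were not lower at this threshold, the differences were 0.03 (adjusted p = 0.62) for *Cnn3*, 0.01 (adjusted p = 0.80) for *Tln1*, -0.04 (adjusted p = 0.32) for *Wwtr1*, -0.05 (adjusted p = 0.26) for *Lats2*, -0.12 (adjusted p = 0.20) for *Srf*, -0.13 (adjusted p = 0.14) for *Mkl1* and -0.27 (adjusted p = 0.090) for *Synpo2*. *Srf* and *Mkl1* are thus not shown to differ between the differentiating genotypes, with 95% intervals of -0.29 to 0.04 and -0.27 to 0.02 on the log2 scale.

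The test of the difference itself, the interaction of genotype and induction, asks whether a gene changed by a different amount in KO than in WT MSCs. At an adjusted p under 0.05, 30 members had the more negative change in KO (20.0% of all tested genes) and 4 the less negative one (19.4%), namely *Cnn3* 0.25 (adjusted p = 0.013), *Synpo2* 0.57 (adjusted p = 0.027), *Wwtr1* 0.14 (adjusted p = 0.029) and *Amotl2* 0.23 (adjusted p = 0.0077). In 9 members the difference was more than 2-fold (3.42% of all tested genes), and 0 passed in the other direction (2.76%; 0 also at an unadjusted p under 0.05 in limma). The median was -0.53. The 9 comprised *Acta2* -1.35 ± 0.26 (adjusted p = 0.010), *Cnn1* -1.33 ± 0.23 (adjusted p = 0.0071), *Ankrd1* -1.31 ± 0.24 (adjusted p = 0.0089), *Actg2* -1.20 (adjusted p = 0.0094), *Tagln* -1.18 (adjusted p = 0.011), *Actg1* -1.16 (adjusted p = 0.0012), *Actn4* -1.15 (adjusted p = 0.00064), *Tagln2* -1.05 (adjusted p = 0.0014) and *Tpm2* -1.02 (adjusted p = 0.0066). Without replicate 2 of the differentiating KO MSCs 5 remained beyond 2-fold, *Acta2* (-1.06), *Actg1* (-1.05), *Actn4* (-1.06), *Cnn1* (-1.08) and *Ankrd1* (-1.05). At an adjusted p under 0.05, up to 10 members, among them *Synpo2*, *Wwtr1* and *Myl9*, did not pass without a single library (replicate 2 of undifferentiated KO MSCs for the count of 10).

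These 9 genes reached their interaction in different ways. *Actn4*, the second alpha-actinin gene, was at 101 and 101 RPKM in WT and 141 and 143 RPKM in KO MSCs before induction, and at 80.8 and 81.4 RPKM in WT and 54.6 and 48.4 RPKM in KO MSCs after it. KO stood above WT before and below it after induction, with a difference of 0.49 ± 0.06 (adjusted p = 0.0025) and then -0.66 ± 0.06 (adjusted p = 0.0011). *Actg1* and *Tagln2* had the same crossing. *Acta2*, *Actg2*, *Tagln*, *Cnn1*, *Tpm2* and *Ankrd1* did not pass before induction in the fit to all libraries and had a lower level in KO after it. *Cnn1* did pass before induction in the fit to only the libraries compared. Its difference there (0.26) was close to that of *Actg1* (0.27), so the threshold and not the size parts these 2 genes. *Mkl1* was higher in KO before induction and not shown to differ after it, with an interaction of -0.80 ± 0.08 (adjusted p = 0.0015). For *Srf* the interaction was -0.14 (adjusted p = 0.28), for *Myh9* -0.15 (adjusted p = 0.054), for *Mylk* 0.14 (adjusted p = 0.16), for *Tln1* -0.04 (adjusted p = 0.39) and for *Lats2* -0.06 (adjusted p = 0.32). That of *Myh9* passed under median centring, quantile normalization, a pseudocount of 1 and without either differentiating KO library (lowest adjusted p = 0.0124), and that of *Mylk* without replicate 2 of differentiating KO MSCs (0.0463).

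The markers of other states and cell types were set beside these differences. The summed level of 10 proliferation genes was 257 and 259 RPKM in WT and 341 and 347 RPKM in KO MSCs before induction. After it the sum was 147 and 158 RPKM in WT and 90.7 and 69.3 RPKM in KO MSCs, the same order of groups as for the module. All 10 genes were lower in differentiating KO than WT MSCs, where 22.9% of all tested genes were. Macrophage and leukocyte markers, 11 in the table, summed to 18.6 and 19.8 RPKM in WT and 9.98 and 9.29 RPKM in KO MSCs before induction, and to 31.6 and 36.5 RPKM in WT and 13.8 and 14.8 RPKM in KO MSCs after it, with 0 to 2 of them at 0. The sum was lower in KO in both states. Of 9 tested, 8 were lower and 1 higher in differentiating KO than WT MSCs (22.9% and 17.8% of all tested genes). In undifferentiated KO 4 were lower and 2 higher than in WT MSCs (17.5% and 14.7%). The 7 pericyte markers summed to 16.5 and 17.1 RPKM in differentiating KO MSCs and to 23.9 to 26.3 RPKM in the other 3 groups, with 0 or 1 at 0. Of 5 tested, 3 were lower in differentiating KO than WT MSCs (22.9% of all tested genes). Of the 5 vascular smooth muscle markers, *Myh11* and *Cnn1* are members. Of the others, *Smtn* was at 12.4 and 11.7 RPKM in WT and 13.9 and 13.8 RPKM in KO MSCs before induction, and at 8.74 and 9.05 RPKM in WT and 6.64 and 6.89 RPKM in KO MSCs after it, and *Des* was under 2 RPKM throughout. Skeletal muscle markers summed to 34.2 to 48.4 RPKM before and 2.71 to 4.69 RPKM after induction, nearly all of it the skeletal actin gene *Acta1*, and 8 to 9 of the 10 genes were under 1 RPKM. The 6 adipocyte markers summed to 57.1 to 67.7 RPKM before and 420 to 468 RPKM after induction. The 9 osteoblast lineage markers summed to 1226 to 1587 RPKM before induction, to 2322 and 2098 RPKM in differentiating WT and to 1239 and 1170 RPKM in differentiating KO MSCs. These sums do not show the course of each gene. With induction 2 were higher and 2 lower in WT (31.6% and 32.8% of all tested genes). In KO 1 was higher and 5 were lower (36.4% and 36.6%). Between the differentiating genotypes 0 were higher and 7 lower in KO (17.8% and 22.9%). The part of all these marker sets in the result was not tested.

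The genes around the module, on lists of the SRF and Hippo pathways, moved in part with it. Of 17 SRF cofactor and further target genes, 14 were lower and 0 higher in differentiating KO than WT MSCs (limma, adjusted p under 0.05; 22.9% and 17.8% of all tested genes), 13 were lower and 3 higher with induction in WT (32.8% and 31.6%), and 12 lower and, leaving out *Actb*, 1 higher in KO (36.6% and 36.4%). The myocardin gene *Myocd*, an SRF cofactor of muscle, went the other way with induction. It was at 0.219 and 0.188 RPKM in WT and 0.282 and 0.321 RPKM in KO MSCs before induction, and at 2.04 and 1.87 RPKM in WT and 0.739 and 0.731 RPKM in KO MSCs after it. It rose by 2.76 in WT and 1.06 in KO MSCs on the log2 scale and was lower in differentiating KO than WT, -1.30 ± 0.11 (adjusted p = 0.00098). *Palld*, which encodes the stress fibre protein palladin, was at 47.7 and 41.6 RPKM in WT and 51.8 and 52.3 RPKM in KO MSCs before induction, and at 31.5 and 29.9 RPKM in WT and 14.9 and 17.7 RPKM in KO MSCs after it, with an interaction of -1.14 ± 0.14 (adjusted p = 0.0023). *Actb* belongs to this list and was at 4215 and 4314 RPKM in WT and 0 and 0 RPKM in KO MSCs before induction, and at 2539 and 2747 RPKM in WT and 1806 and 1474 RPKM in KO MSCs after it; an exact 0 of a gene that every cell uses can be a failed estimate, and no fold is given.

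Of 13 further YAP/TEAD targets, 8 were higher and 2 lower in undifferentiated KO than WT (14.7% and 17.5% of all tested genes), 2 higher and 5 lower in differentiating KO than WT (17.8% and 22.9%), and 0 higher and 8 lower in the interaction (19.4% and 20.0%). *Ctgf*, a secreted matricellular protein gene and a widely used YAP reporter, was at 727 and 789 RPKM in WT and 716 and 687 RPKM in KO MSCs before induction, and at 169.8 and 192 RPKM in WT and 69.4 and 48.3 RPKM in KO MSCs after it. It moved in the same direction as *Ankrd1*, with -2.07 ± 0.17 (adjusted p = 0.00011) in WT, -3.60 ± 0.17 (adjusted p = 6.7e-06) in KO MSCs and -1.64 ± 0.17 (adjusted p = 0.0015) between the differentiating genotypes. *Cyr61*, the other gene commonly read with it, was at 401 and 415 RPKM in WT and 417 and 422 RPKM in KO MSCs before induction, and at 417 and 407 RPKM in WT and 363 and 337 RPKM in KO MSCs after it. It changed by 0.02 (adjusted p = 0.79) in WT and -0.26 (adjusted p = 0.0027) in KO MSCs, and was lower in differentiating KO than WT, -0.24 (adjusted p = 0.011), with an interaction of -0.28 (adjusted p = 0.021). Of 16 Hippo kinase and TEAD genes, 6 were higher and 8 lower with induction in WT (31.6% and 32.8% of all tested genes), and 5 higher and 3 lower in differentiating KO than WT (17.8% and 22.9%). *Tead1* was at 12.9 and 11.7 RPKM in WT and 18.0 and 17.3 RPKM in KO MSCs before induction, and at 12.0 and 11.2 RPKM in WT and 6.98 and 8.58 RPKM in KO MSCs after it, with an interaction of -1.09 ± 0.15 (adjusted p = 0.0031).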

How the data were processed

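The authors removed ribosomal RNA, made strand-specific single-end libraries, aligned the reads to mm10 with TopHat2 (2.1.0 in the submitters' processing notes, which also name Cufflinks 2.2.1) and ran Cuffdiff for the gene levels. They deposited RPKM, with a column for each library; the library scaling is not given in the sources used here, and 0 columns lacked a sample.

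Groups were taken from the labels. From there log2(RPKM + 0.1) was fitted in limma 3.58.1 (R 4.3.3) with a mean for each of 4 groups over all 8 libraries, a variance trend, and Benjamini-Hochberg adjustment over the 15342 genes whose mean reached 0.1 RPKM (4 residual and 1.98 prior degrees of freedom). A call needed an adjusted p under 0.05 and a log2 fold change beyond 1 in either direction, the study's limits. The fit was tested on simulated data. Depth was estimated from the steps between low values of 3550 single-transcript genes; 67.7% of 6114 low values were whole reads (within 0.05 reads, 10% by chance), too few for a test of counts, and intervals from depth cover counting error only. The 2 libraries of every group differed by more than sampling noise and were counted separately. The chi-square per gene was 3.38 in undifferentiated WT, 2.82 in undifferentiated KO, 7.54 in differentiating WT and 19.3 in differentiating KO MSCs. The fit used a single spread for all 4 groups. Its standard errors and p-values can therefore be too small for induction in KO MSCs, for differentiating KO against WT MSCs and for the interaction. Positions and shared 50-base words are from GENCODE vM21, promoters from RefSeq (GRCm38.p6), and other steps used Python 3.11.15 with pandas 2.3.3.

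Members described library by library were the up to 16 called members with the greatest change and no overlap between groups, the regulators, the YAP targets and the most abundant gene of each family; other members are given by their fold changes. Pathway genes are counted, and named where called in a genotype comparison or the interaction; *Cyr61* and *Smtn*, and the library values of *Cnn3*, *Actn4*, *Zyx* and *Mylk*, were added with those values already seen. The members and all lists were chosen with earlier results of these data known. Alternatives (385 planned and 10 added after seeing the data) covered pseudocount, expression minimum, scaling, variance trend, fold limit, a replicate block, leaving out each library, and fitting the 4 libraries of a comparison alone. Replicate numbers did not pair the libraries. A further pathway list is not reported here. Transcript isoforms were not analysed here.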

Additional observations from a re-analysis of the deposited data

Results flagged for a closer look

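In 9 members the change with induction differed between the genotypes by more than 2-fold, by the interaction term in limma with an adjusted p under 0.05. The difference, KO minus WT on the log2 scale, was -1.352 for *Acta2*, -1.33 for *Cnn1*, -1.307 for *Ankrd1*, -1.196 for *Actg2*, -1.18 for *Tagln*, -1.162 for *Actg1*, -1.149 for *Actn4*, -1.049 for *Tagln2* and -1.016 for *Tpm2*. All 9 are negative, a more negative change in KO. Without replicate 2 of differentiating KO MSCs 5 of them remained beyond 2-fold. With 2 libraries a group, a library that stands apart within its group could not be looked for.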

How the results depend on the processing

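In undifferentiated KO against WT MSCs *Tpm1* changed sign under quantile normalization and passed there (0.10, adjusted p = 0.0428), and 17 further values, over 10 members and all in that comparison, changed sign under a setting without passing in either fit. No other fold change of a member changed sign. Calls of members moved with the fold limit. With none, members higher and lower were 7 and 5 in undifferentiated KO against WT MSCs, 2 and 30 in differentiating KO against WT, 2 and 37 with induction in WT, 1 higher with induction in KO, and 4 and 30 in the interaction. With a 1.5-fold limit they were 2 and 2 in undifferentiated MSCs, with 15 lower in differentiating KO against WT and 16 lower in the interaction. Leaving out each library in turn gave 2 to 8 lower members in differentiating KO against WT and 5 to 12 in the interaction, the lowest without replicate 2 of differentiating KO MSCs. In a fit with only the libraries compared, 11 members of the differentiating comparison, *Cnn1* among them, no longer had an adjusted p under 0.05. In the undifferentiated comparison the same kind of fit took *Cald1*, *Cnn1* and *Myh11* under that limit. With induction in KO *Amotl2* no longer passed. With a replicate block the lower members were 0, 6, 20, 29 and 9 in the same order of comparisons; the numbers shared by the libraries did not pair them (correlations of deviations -0.0936 to 0.0351 over 12269 genes). Under the block *Actg1* and *Lmod1* (undifferentiated), *Amotl2* (induction in KO) and *Cnn2*, *Csrp1*, *Myl6*, *Wwtr1* and *Yap1* (interaction) no longer passed. Quantile normalization moved the median of the members to 0.10 in undifferentiated and -0.44 in differentiating KO against WT, and to -0.91 with induction in WT. Without the 6 members that share over 10% of their words, a check added after seeing the data, the lower members were 6 in differentiating KO against WT, 18 and 25 with induction in WT and KO, and 8 in the interaction. Depth limits *Synpo2* most, with 249 reads behind its lowest value.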
